A study of Mus musculus with 8 samples.

Results

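Immunoglobulin RNA in mouse lymph node (LN) was read through every probe set of the array whose annotated gene symbols begin with Igh, Igk or Igl followed by a constant or variable segment name. Of 22690 probe sets, 51 met this rule, and Ighmbp2, Igll1 and the Iglon genes, whose symbols begin alike, were left out. A probe set is a group of short probes on the array whose signals are summarized to 1 value. The 51 comprised 18 for heavy chain constant genes (11 for Ighm, 4 for Ighg3 and 3 for Igha), 5 for heavy chain variable segments, 25 for the kappa light chain and 3 for the lambda light chain. A single gene was annotated to 38 of them, which gave 19 genes, and several genes to the other 13. Another 4 probe sets that carry only the name of the kappa locus, with no segment, are not counted among the 51.

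An antibody is built of heavy and light chains, each with a variable part that binds antigen and a constant part. The heavy chain constant gene in use sets the class, with Ighm encoding IgM, Ighg3 encoding IgG3 and Igha encoding IgA, the class of mucosal and glandular secretions. The light chain is kappa or lambda, and in mice most antibodies carry kappa. B cells make the chains as part of their antigen receptor, plasma cells make them in far larger amounts for secretion, and the variable segments in use differ from one B cell clone to the next.

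The study compared LN of C57Bl/6 wild-type mice (WT) with LN of H3RKO mice, which lack the histamine H3 receptor gene Hrh3, to ask whether this receptor alters gene expression in LN before and after injection of an adjuvant. All mice were 8 weeks old and each of the 8 arrays held RNA pooled from at least 3 mice of both sexes. WT untreated and H3RKO untreated had 2 arrays each, and each genotype had 1 array taken 24 h after complete Freund's adjuvant (CFA), an oil emulsion of killed mycobacteria, and 1 taken 24 h after CFA with pertussis toxin (CFA+PTX), which blocks signalling through a class of G proteins. The 2 arrays of this last treatment carry titles naming PTX alone and descriptions naming CFA with PTX, and the descriptions were followed. The H3RKO mice are a B6.129P2 line kept in a colony of its own, whereas C57BL/6J mice were bought from a supplier, so genotype and colony cannot be told apart. The site of the LN is not given for the arrays in the sources used here.

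All values are log2 signals normalized by the authors with the Robust Multichip Average (RMA), so a difference of 1 is a change of 2-fold. The arrays resembled each other closely, with correlations between pairs from 0.9904 to 0.998 over all probe sets. The probe set for Hrh3 (1448807_at) lay between 7.20 and 7.29 in the 4 H3RKO arrays and between 6.56 and 6.66 in the 4 WT arrays. Whether its probes fall inside the deleted stretch is not given in the sources used here, so it does not check the labels. Genes of salivary and lacrimal gland (9 genes, such as Pip and Smr3a) had a mean log2 signal of 5.23 in WT CFA+PTX and 9.61 in WT untreated 1, against 12.65 to 13.42 in the other 6 arrays. B cell genes were present throughout, with Cd79a, Cd79b and Ms4a1 among the 7 measured of 9 listed and a mean signal of the 7 between 11.67 in WT CFA+PTX and 12.03 in WT CFA. Plasma cell genes (8 measured of 10) lay between 9.24 in WT CFA+PTX and 9.48 in H3RKO untreated 1.

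The immunoglobulin probe sets varied more between arrays than most of the array did. The range over the 8 arrays, the highest minus the lowest log2 signal, had a median of 0.70 over the 51 and of 0.33 over all probe sets. It was over 1 in 15 of the 51 (29.4%, against 2.72% of all probe sets) and over 1.5 in 9 (17.6% against 0.919%). The class with the highest median range was heavy constant (0.96), followed by heavy variable (0.70), lambda (0.69) and kappa (0.55). The 9 probe sets with a range over 1.5 were 4 of the 11 for Ighm, all 3 for Igha and 2 for kappa variable segments. Signals of different probe sets depend on their probes, so no probe set's level is set against another's here. On the array's scale 28 of the 51 had a mean signal above the median of all probe sets (7.97), and 13 had a mean at or under 6, near the low end of the scale.

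Among the heavy constant probe sets, those for Ighm split into 2 kinds. In 5 of the 11, namely 1425247_a_at, 1425324_x_at, 1427756_x_at, 1427870_x_at and the dim 1427869_at, the range was over 1, with a high level in some arrays and a low one in the others. In 1425247_a_at the log2 signal was 12.25 and 12.39 in WT untreated, 12.50 in WT CFA and 11.09 in WT CFA+PTX, and 11.00 and 10.78 in H3RKO untreated, 10.85 in H3RKO CFA and 12.10 in H3RKO CFA+PTX. Thus 3 WT arrays and H3RKO CFA+PTX were high, and 3 H3RKO arrays and WT CFA+PTX were low, with a gap of over 1 between the lowest high array and the highest low one. In 1427870_x_at the high arrays were 12.91, 12.92, 12.97 (WT untreated and WT CFA) and 12.67 (H3RKO CFA+PTX), and the low ones 11.64, 11.46, 11.60 (H3RKO untreated and H3RKO CFA) and 11.68 (WT CFA+PTX). In 1425324_x_at they were 11.58, 11.68, 12.01 and 11.46 against 10.42, 10.03, 10.10 and 10.25 in the same order. The same 4 arrays were high in each of these, and the high and low arrays did not overlap.

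The other 2 followed suit. In 1427756_x_at WT untreated and WT CFA gave 11.55, 11.60 and 11.85 and H3RKO CFA+PTX 11.41, against 10.37, 9.99 and 10.19 in H3RKO untreated and H3RKO CFA and 10.20 in WT CFA+PTX. The dim 1427869_at lay between 5.99 and 6.30 in the high arrays and between 5.10 and 5.45 in the low ones. Over the 8 arrays the lowest correlation between any 2 of the 5 was 0.952, as a description, and probe sets for 1 gene may share probe sequence or target.

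The 6 other Ighm probe sets did not take these levels. The probe sets 1427351_s_at and 1427329_a_at, with signals near the top of the scale, stayed between 14.14 and 14.33 and between 13.74 and 13.93, where the highest value of any probe set on any array was 14.40. In 1425385_a_at the values were 12.68 and 12.29 in WT untreated, 12.76 in WT CFA and 12.37 in WT CFA+PTX, and 13.22 and 12.34 in H3RKO untreated, 13.00 in H3RKO CFA and 13.08 in H3RKO CFA+PTX. This order was not that of the 5, since H3RKO untreated 1 was highest and the 2 H3RKO untreated arrays differed by more than either differed from its nearest WT array. The other 3 were 1452535_at (8.05 to 8.73), 1451949_at (5.01 to 5.45) and 1426196_at (3.89 to 4.25). The 11 probe sets annotated to this 1 gene thus disagreed. The array annotation used here does not say which part or form of the transcript each one targets. The paper lists IGHG1, the constant gene of IgG1, at fold changes that match those of 1425247_a_at. These were 2.7 (lower in H3RKO) in untreated LN, 3.14 (lower) after CFA and 2.02 (higher) after CFA+PTX. Whether the 5 read Ighm or another heavy constant gene was not tested.

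No other probe set on the array followed the 5 closely. Of 22621 others, none had both a correlation over 0.9 with their mean over the 8 arrays and a range over 0.5. The most alike of the 4438 with such a range were those for Rnf207 (0.81), Icam4 (0.79) and Rag1 (0.79), and the most alike immunoglobulin probe set was 1460423_x_at for Igkv9-120 (0.72). The probe sets separating the genotypes most firmly took another order. In untreated LN, 2 probe sets that the annotation table leaves unnamed, 1420465_s_at and 1426154_s_at, passed Benjamini-Hochberg adjustment (limma adjusted p = 0.00262 each, 0.00884% of all probe sets). The first lay between 10.48 and 12.81 in all 4 WT arrays, with 12.81 in WT CFA+PTX, and between 9.09 and 9.27 in all 4 H3RKO arrays, with 9.20 in H3RKO CFA+PTX.

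Between genotypes in untreated LN, 4 of the 51 probe sets, all Ighm and all lower in H3RKO, passed the criterion of the study's methods, an unadjusted p under 0.05 with a fold change over 2. Over all probe sets 0.15% passed, and 0.0751% in this direction. The log2 difference, H3RKO minus WT, was −1.43 ± 0.11 in 1425247_a_at (SE, n = 2 arrays per genotype, limma adjusted p = 0.0924), −1.36 ± 0.10 in 1427870_x_at (limma adjusted p = 0.0924), −1.41 ± 0.15 in 1425324_x_at (limma adjusted p = 0.190) and −1.40 ± 0.14 in 1427756_x_at (limma adjusted p = 0.177). Both H3RKO arrays lay below both WT arrays in each, and no immunoglobulin probe set passed after adjustment. The dim 1427869_at had −0.88 ± 0.16, under the fold change asked for. The remaining heavy constant, heavy variable, kappa and lambda probe sets had no call, and the 51 were split evenly, 25 higher and 26 lower with a median of −0.01, against 47.4% higher over all probe sets. It was 17 higher and 34 lower without H3RKO untreated replicate 1 (median −0.12) and 34 higher and 17 lower without replicate 2 (0.06).

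After CFA the same 4 Ighm probe sets were the 4 that passed, again lower in H3RKO, where 0.225% of all probe sets passed and 0.164% in this direction. Their differences were −1.65 ± 0.16, −1.37 ± 0.14, −1.90 ± 0.21 and −1.67 ± 0.20 in the order above, with limma adjusted p from 0.432 to 0.477. No probe set of the array passed adjustment here. Each treated group is 1 array, which is assumed to vary as the untreated pairs did. The median over the 51 was −0.06, with 21 higher and 30 lower, against 56.7% higher over all probe sets.

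After CFA+PTX the direction was the opposite one and it extended to the other classes. The H3RKO array lay above the WT array in 50 of the 51 probe sets, against 43.1% of all probe sets, with a median difference of 0.35. In this pair of arrays the 5 Ighm probe sets stood at the level of the other genotype in untreated LN, WT low and H3RKO high. The probe set for Hrh3 (6.63 in WT CFA+PTX, 7.25 in H3RKO CFA+PTX) lay on the side of its labelled genotype. As stated above, it does not check the labels. The probe sets 1420465_s_at (12.81 and 9.20) and 1426154_s_at (8.09 and 4.01) also lay on the side of their labelled genotype. They carry no gene name here and were picked for their difference between genotypes in untreated LN. An exchange of these pools was not tested. The higher signal in H3RKO held for 18 of 18 heavy constant probe sets (median 0.55), 5 of 5 heavy variable (0.46), 24 of 25 kappa (0.28) and 3 of 3 lambda (0.25). At the criterion 8 passed, all higher in H3RKO, where 0.362% of all probe sets passed and 0.265% in this direction, and none of the 51 passed after adjustment (0.00884% of all probe sets did). They were 3 Ighm probe sets (1.01 ± 0.16 in 1425247_a_at, 1.21 ± 0.21 in 1425324_x_at and 1.21 ± 0.20 in 1427756_x_at, limma adjusted p from 0.675 to 0.814), the 3 Igha probe sets, 1451965_at for kappa segments and 1452538_at for a heavy variable segment, while 1427870_x_at lay just under the fold change with 0.99. Of these 8, 3 passed in the linear model without moderation of the variances.

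Counted array by array, WT CFA+PTX was the lowest of the 8 arrays for 29 of the 51 probe sets (56.9%, against 15% of all probe sets) and the highest for none (against 21.2%). It was lowest for 20 of the 25 kappa probe sets, 7 of the 18 heavy constant, 1 of the 5 heavy variable and 1 of the 3 lambda. H3RKO CFA+PTX was lowest for none (against 9.46% of all probe sets) and highest for 7 (13.7% against 6.56%). WT CFA was highest most often, for 13 (25.5% against 7.75%). The mean levels of the B cell and plasma cell markers were also lowest in WT CFA+PTX (0.22 and 0.13 on the log2 scale below their means over the 8 arrays), as was the gland signal. Single markers did not all follow, since Cd22, Prdm1 and Sdc1 were lowest in other arrays. The part of these cells and of gland in the low immunoglobulin signals was not tested. In bulk LN, fewer cells of a type and less RNA per cell cannot be told apart. The mean of the 5 Ighm probe sets, each centred on its own mean, was 0.45 or above in the high arrays and −0.51 or below in the low ones. The B cell markers spanned only 0.36, so subtracting their mean could not remove this split and does not test a part of cell content. After subtraction the 5 stood at 0.56 to 0.66 in WT untreated and WT CFA, 0.51 in H3RKO CFA+PTX and −0.33 in WT CFA+PTX. They stood at −0.51 to −0.82 in H3RKO untreated and H3RKO CFA.

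The interaction of genotype with CFA+PTX asks whether the genotype difference after CFA+PTX differs from that in untreated LN, and it shares the untreated arrays with the comparison above. It passed the criterion in 6 of the 51, all positive, against 0.265% of all probe sets and 0.146% in this direction, and 47 of the 51 were positive, against 46.4% of all probe sets. These were the 5 Ighm probe sets, from 1.43 ± 0.27 in 1427869_at to 2.62 ± 0.25 in 1425324_x_at, and 1451965_at with 1.37 ± 0.30. The lowest limma adjusted p among them was 0.309. With CFA the interaction passed in 1 of the 51, 1451962_at for Igkv6-20, which was negative, against 0.667% of all probe sets and 0.522% in this direction. Of the 51, 17 were positive, against 56.7% of all probe sets, and this count was 29 without H3RKO untreated replicate 1 and 11 without replicate 2.

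The 3 Igha probe sets moved almost as 1. In 1421653_a_at the signal was 13.17 and 11.91 in WT untreated, 12.70 in WT CFA and 11.31 in WT CFA+PTX, and 12.89 and 12.60 in H3RKO untreated, 12.93 in H3RKO CFA and 12.74 in H3RKO CFA+PTX. In 1425763_x_at the WT values were 13.33, 11.95, 12.82 and 11.29 in that order, and the H3RKO values lay between 12.75 and 13.00. In 1429381_x_at the WT values were 13.04, 11.73, 12.62 and 11.08 and the H3RKO values lay between 12.56 and 12.84. WT arrays thus spread over about 2 log2 units and the 4 H3RKO arrays lay close together within the WT range.

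The 2 WT untreated arrays differed by 1.26 in 1421653_a_at, nearly as much as the CFA+PTX arrays of the 2 genotypes. Accordingly the difference after CFA+PTX had a wide error, 1.43 ± 0.56 in 1421653_a_at, 1.56 ± 0.60 in 1425763_x_at and 1.54 ± 0.58 in 1429381_x_at (limma adjusted p = 1 for each), and none of the 3 passed in the model without moderation. The WT arrays low in gland RNA were at opposite ends for Igha, since WT untreated 1 (gland signal 9.61) was highest and WT CFA+PTX (5.23) lowest. Pigr, which encodes the receptor that carries IgA across epithelium, was 6.06 and 8.66 in WT untreated, 7.78 in WT CFA and 6.33 in WT CFA+PTX, and 7.57 to 8.88 in the H3RKO arrays. It was low in the same 2 arrays as the gland genes, an order that Igha did not share.

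Of the 4 Ighg3 probe sets, 1427503_at carried most of the variation. It was 11.08 and 11.20 in WT untreated, 10.45 in WT CFA and 10.71 in WT CFA+PTX, and 10.98 and 10.87 in H3RKO untreated, 10.29 in H3RKO CFA and 11.26 in H3RKO CFA+PTX. Both CFA arrays lay below the other 6, whichever the genotype. The difference of CFA against untreated, both genotypes together, was −0.67 ± 0.16 (limma adjusted p = 0.588), which did not pass. The others, 1447998_at (5.91 to 6.42), 1426199_x_at (3.11 to 3.54) and 1426198_at (3.10 to 3.43), were dim.

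The signals for the kappa constant region spanned little over the arrays, near the top of the scale. The 3 probe sets annotated to Igkc together with kappa variable and joining segments lay between 13.80 and 13.93 (1427455_x_at), 13.18 and 13.29 (1427660_x_at) and 12.52 and 12.77 (1452417_x_at). Their mean, each probe set centred on its own mean, spanned 0.12 over the 8 arrays. The highest signal of any probe set on any array was 14.40, and whether signals this bright could still rise with more RNA was not tested.

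Kappa variable segments, which rearrange in single clones, moved more and differently from one another. The widest was 1451962_at for Igkv6-20, with 7.21 and 6.77 in WT untreated, 8.56 in WT CFA and 6.65 in WT CFA+PTX, and 7.21 and 6.92 in H3RKO untreated, 7.58 in H3RKO CFA and 7.01 in H3RKO CFA+PTX. The WT CFA array stood about 1 above the next one, and both CFA arrays were above the other 6. The interaction of genotype with CFA was −1.06 ± 0.31 (limma adjusted p = 0.849), and it lost the call without WT untreated replicate 2 (−0.84) and without H3RKO untreated replicate 1 (−0.92), where it fell under the fold change. The difference of CFA against untreated was 1.05 ± 0.27 (limma adjusted p = 0.591).

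In 1451965_at, annotated to Igkv6-14, Igkv6-23 and Igkv8-19, H3RKO CFA+PTX stood out at 11.83, against 10.68 and 10.61 in WT untreated, 11.08 in WT CFA, 10.18 in WT CFA+PTX, 11.18 and 10.67 in H3RKO untreated and 11.02 in H3RKO CFA. Its difference between genotypes after CFA+PTX was 1.65 ± 0.24 (limma adjusted p = 0.58). The 2 probe sets annotated to the same 3 genes, 1427576_at and 1427577_x_at, had 0.54 ± 0.20 and 0.68 ± 0.18, and in them H3RKO CFA, not H3RKO CFA+PTX, was highest. Igkv6-14 alone (1427860_at) had 0.64 ± 0.19, with 8.84 in WT CFA+PTX and 9.14 to 9.83 elsewhere. Probe sets sharing these segment names thus differed in size and in which array was highest.

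Other segments had patterns of their own. Igkv15-103 (1427837_at) was highest in H3RKO CFA, at 9.84 against 8.66 to 9.45 in the other arrays, and its difference after CFA was 0.90 ± 0.21 (limma adjusted p = 1.00), under the fold change. The probe set for Igkv4-55 and Igkv4-68 (1426200_at) was highest in WT untreated 2 (8.99) and lowest in WT CFA+PTX (7.86). For Igkv9-120, 1460423_x_at was highest in WT CFA (11.41) and lowest in WT CFA+PTX (10.32), whereas 1452536_s_at was highest in H3RKO CFA (8.24) and lowest in the same array (7.24), and the dim 1427750_at stayed between 4.99 and 5.35. The bright 1452463_x_at for Igkv8-30 lay between 12.69 in WT CFA+PTX and 13.17 in H3RKO untreated 1.

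Igkv6-15 and Igkv6-14, neighbours in the kappa locus (147 and 148 in order among the 162 Igkv entries of the RefSeq table of assembly GRCm38.p6), did not move together. Igkv6-15 (1427859_at) was 6.77 in WT untreated 1 and 6.06 to 6.24 in the other arrays, and Igkv6-14 had WT CFA highest. Over the 231 pairs of the 22 kappa variable probe sets the correlation over 8 arrays ran from −0.65 to 0.96 with a median of 0.40, as a description of arrays that share normalization.

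Of the 5 heavy variable probe sets, only 1455530_at for Ighv14-2 was bright, and it stayed between 12.51 and 12.75. The dim 1452538_at, annotated to Ighv14-2, Ighg3 and Ighm, was 4.97 and 4.57 in WT untreated, 4.89 in WT CFA and 4.59 in WT CFA+PTX, and 5.25 and 5.09 in H3RKO untreated, 4.96 in H3RKO CFA and 5.65 in H3RKO CFA+PTX. H3RKO CFA+PTX was highest, and the difference after CFA+PTX was 1.06 ± 0.22 (limma adjusted p = 1). The other 3 lay between 5.33 and 7.41.

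The 3 lambda probe sets shared their highest array. In 1424931_s_at, annotated to Iglc1 and Iglv1, the signal was 11.53 and 11.53 in WT untreated, 11.51 in WT CFA and 11.34 in WT CFA+PTX, and 11.96 and 11.21 in H3RKO untreated, 11.72 in H3RKO CFA and 11.59 in H3RKO CFA+PTX. H3RKO untreated 1 was the highest array in all 3, and H3RKO untreated 2 the lowest in 2 of them. The 2 for Iglv1 alone had ranges of 8.37 to 9.07 (1427292_at) and 11.84 to 12.53 (1430523_s_at). In 1424931_s_at and 1427292_at the widest gap was between the replicates of H3RKO untreated, while in 1430523_s_at the lowest array was WT CFA+PTX (11.84). No comparison called a lambda probe set.

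The class levels were set against each other by array. Class level is the mean over a class of the log2 signal minus each probe set's mean over the 8 arrays. For heavy constant it was 0.29 and 0.07 in WT untreated, 0.26 in WT CFA and −0.45 in WT CFA+PTX, and −0.01 and −0.25 in H3RKO untreated, −0.13 in H3RKO CFA and 0.22 in H3RKO CFA+PTX. For kappa it was 0.05 and −0.02, 0.14 and −0.31 in the WT arrays and 0.12 and −0.11, 0.07 and 0.06 in the H3RKO arrays, in the same order. For lambda it was −0.24 in WT CFA+PTX, 0.39 and −0.28 in H3RKO untreated, and between −0.00 and 0.11 elsewhere.

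All 3 classes were low in WT CFA+PTX and lower in H3RKO untreated 2 than in H3RKO untreated 1. Heavy constant minus kappa was 0.09 to 0.24 in WT untreated and WT CFA and 0.16 in H3RKO CFA+PTX, and −0.13 to −0.20 in the other 4 arrays, the split of the 5 Ighm probe sets that belong to the heavy class. With class medians in place of means this difference spanned 0.18 over the arrays in place of 0.44, and WT CFA+PTX (0.03) and H3RKO untreated 2 (0.01) were then on the positive side, so the split belongs to the means. The differences from lambda did not follow it in every array, since heavy constant minus lambda was 0.03 in H3RKO untreated 2, and kappa minus lambda was 0.18 there and −0.02 in WT untreated 2. The B cell markers spanned 0.36 over the 8 arrays, kappa 0.46, lambda 0.67 and heavy constant 0.74. These levels rest on probe sets that overlap in target and carry no test.

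With both genotypes or all treatments pooled in an additive model, no immunoglobulin probe set passed adjustment, nor did any probe set of the array. For genotype over all treatments 0 of the 51 passed (0% of all probe sets) and 5 had an unadjusted p under 0.05 in limma (3.64%), with 29 higher and 22 lower in H3RKO (47.7% of all probe sets were higher). For CFA against untreated 0 passed (0%) and 2 had such a p (6.25%), with 37 higher and 14 lower (53.1% higher) and a median of 0.06. For CFA+PTX against untreated 0 passed (0%) and 2 had such a p (12.3%), with 14 higher and 37 lower (51.6% higher) and a median of −0.07. For CFA+PTX against CFA 0 passed (0%) and 7 had such a p (5.47%), with 8 higher and 43 lower (50.5% higher) and a median of −0.11.

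The directions of these pooled comparisons turned with single arrays. For CFA against untreated, 16 were higher and 35 lower without WT CFA (median −0.05), and 21 higher and 30 lower without H3RKO untreated replicate 2 (−0.01). Without WT CFA+PTX, 34 of the 51 were higher and 17 lower in CFA+PTX than in untreated LN (median 0.09), and 30 were higher and 21 lower than after CFA (0.05). Without H3RKO CFA+PTX, 3 were higher and 48 lower in both. Without WT CFA, 21 were higher and 30 lower in CFA+PTX than after CFA (−0.03). For genotype over all treatments, 40 were higher and 11 lower in H3RKO without either CFA array (0.08) or without H3RKO untreated replicate 2 (0.07). Leaving out either CFA+PTX array leaves the difference to the other 6 arrays, where 21 were higher and 30 lower (−0.04), and 2 Ighm probe sets then passed adjustment, both lower in H3RKO (0.00884% of all probe sets passed there, those 2 alone), with −1.504 in 1425247_a_at (limma adjusted p = 0.0274) and −1.37 in 1427870_x_at (limma adjusted p = 0.0186). No immunoglobulin probe set separated the 4 H3RKO from the 4 WT arrays or the 4 injected from the 4 untreated arrays without overlap, in either direction, where 0.743% and 0.941% of all probe sets were above and below by genotype and 3.07% and 2.98% by injection.

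Few genes that work with immunoglobulin passed in any comparison, and few probe sets of the array did. The share over all probe sets was 0.15% to 0.667% at the criterion and 0% in the pooled comparisons. With so few listed genes, such counts cannot tell them from the array at large. Lists were followed for the signalling partners of the B cell receptor (13 measured of 15), V(D)J recombination and the surrogate light chain (6 of 7), class switching (7 of 9), transcription regulators (14 of 15), assembly and transport (14 of 16) and Fc receptors of other cells (8 of 10). No gene of the first 5 lists passed in any of the 9 comparisons, and of the Fc receptors only Fcgr1, the high-affinity IgG receptor of macrophages, passed in the interaction of genotype with CFA+PTX (−1.15 ± 0.30, limma adjusted p = 1.00). Jchain, which joins the units of polymeric IgM and IgA, was 12.65 and 12.57 in WT untreated, 12.56 in WT CFA and 12.08 in WT CFA+PTX, and 12.73 and 12.34 in H3RKO untreated, 12.54 in H3RKO CFA and 12.68 in H3RKO CFA+PTX. WT CFA+PTX was lowest here too, as for 29 of the 51 immunoglobulin probe sets, and the difference of 0.60 ± 0.20 after CFA+PTX did not reach the fold change. Cd79a and Cd79b, the signalling chains of the receptor, differed between genotypes after CFA+PTX by 0.10 ± 0.12 and 0.11 ± 0.14, with Pou2af1, a coactivator of immunoglobulin promoters, at 0.16 ± 0.16.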

How the data were processed

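LN RNA from 8 pools was hybridized by the authors to Affymetrix 430A 2.0 arrays, 1 colour. The deposited log2 values were background-corrected, normalized and summarized per probe set by the authors with RMA in Partek Genomic Suite. No step before them was repeated. Of 22690 probe sets, 64 controls were left out and 22626 tested; the annotation table used here pairs 20380 with 1 gene, 691 with several and 1555 with none. Of the 51 immunoglobulin probe sets, 16 end in _x_at and 4 in _s_at, which mark probes that may hybridize to other transcripts.

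Genotype differences within a treatment and interactions came from a model with 6 group means (limma 3.58.1 with moderated variances, R 4.3.3), with 2 residual degrees of freedom from the untreated pairs. The methods' criterion, an unadjusted p under 0.05 with a fold change over 2, was applied, and p-values adjusted by Benjamini-Hochberg over the 22626 probe sets are given too. Pooled effects came from an additive model (4 residual degrees of freedom) at an adjusted p under 0.05. In the model with 6 group means the p-values rest on the spread within the untreated pairs, and none among treated pools could be measured. In the additive model the residual also holds any difference of treatment effects between the genotypes. Named are probe sets passing in any comparison, the brightest and widest of each class, and up to 3 genes of each list with the largest differences; other probe sets and genes named were chosen after their values were seen. The members, the gene lists and the gland list were chosen with earlier results of these data known. The genotype comparisons were also run on simulated data with a genotype shift alike in every treatment. Interactions and treatment effects were not simulated. Alternatives were no moderation, repeated quantile normalization, median centring, no dim probe sets, no _x_at or _s_at probe sets, other thresholds, a replicate block and each array left out. Precision is limited by the number of arrays.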

Additional observations from a re-analysis of the deposited data

Results flagged for a closer look

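In 7 results a genotype difference after injection differed from that in untreated LN by an interaction test at the criterion of the methods, and none passed adjustment. With CFA+PTX the interaction, in log2 units, was 2.44 ± 0.20 in 1425247_a_at, 2.62 ± 0.25 in 1425324_x_at, 2.61 ± 0.24 in 1427756_x_at, 1.43 ± 0.27 in 1427869_at and 2.36 ± 0.17 in 1427870_x_at, all for Ighm, with limma adjusted p from 0.309 to 1.00. It was 1.37 ± 0.30 in 1451965_at (Igkv6-14, Igkv6-23 and Igkv8-19). With CFA it was −1.06 ± 0.31 in 1451962_at (Igkv6-20, limma adjusted p = 0.849). Each rests on 1 treated array per genotype.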

How the results depend on the processing

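Among 23 results of single probe sets, 273 of 285 alternative values kept their direction and their side of the threshold, 12 kept the direction and lost the call, and 0 reversed. Part of this tally was fixed in advance. Leaving out an array changed only the error of differences after CFA or CFA+PTX, since fits without a compared array were not run. A call also could not be lost at the lower fold change of 1.5. Losses came mostly from the model without moderation. Without probe sets ending in _x_at or _s_at, 1 immunoglobulin probe set passed between genotypes in untreated LN, 1 after CFA and 4 after CFA+PTX, and 3 in the interaction with CFA+PTX, since fewer were tested. With a fold change over 1.5 the counts were 8 after CFA, 13 after CFA+PTX, 2 in the interaction with CFA and 14 in that with CFA+PTX. Without moderation 3 passed after CFA+PTX and 0 in the interaction with CFA, and without dim probe sets 0 in the latter. By the criterion with a fold change over 2 in place of adjustment, 1 passed for CFA against untreated and 1 for CFA+PTX against CFA, both Igkv6-20. The share of all probe sets passing was not counted for these alternatives, and a lower fold change lets more of any probe sets pass. These counts are therefore not set against the array as a whole. With each array left out, counts were 4 to 5 in untreated LN, 4 after CFA, 8 after CFA+PTX, 0 to 2 for genotype over all treatments (2 without either CFA+PTX array), 0 to 1 in the interaction with CFA (0 without WT untreated replicate 2 or H3RKO untreated replicate 1), 6 to 10 in that with CFA+PTX (10 without WT untreated replicate 2) and 0 for the pooled treatments. In the fits with each array left out, 0.15% to 0.508% of all probe sets passed in untreated LN and 0.225% to 0.248% after CFA. The share was 0.362% to 0.482% after CFA+PTX and 0.566% to 1.06% in the interaction with CFA. In the interaction with CFA+PTX it was 0.265% to 0.544% (0.442% without WT untreated replicate 2). For the pooled comparisons it was 0% to 0.0354%. With both arrays of low gland signal left out, chosen after seeing the data, no count that could be fitted moved by over 1.5 times.

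The untreated arrays share replicate numbers, but deviations of same-numbered arrays correlated at only 0.123 and the labels tie nothing to a number. With the replicate number as a block, 4 immunoglobulin probe sets passed in untreated LN, as without the block.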
